A study of Mus musculus with 6 samples.

Results

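Glucose is carried into the cell by transporters, split by the enzymes of glycolysis into pyruvate, and either reduced to lactate for export or passed to mitochondria, where the pyruvate dehydrogenase complex feeds the tricarboxylic acid (TCA) cycle. A side branch, the pentose phosphate pathway, turns glucose phosphate into ribose and NADPH. Neutrophils hold few mitochondria and are known to draw their ATP largely from glycolysis, and their NADPH oxidase burns the NADPH that the pentose phosphate branch supplies. The genes described here are 35 genes of these routes, chosen by their place in these pathways from the 38739 genes of the expression table, by a rule that uses no measured value but was written with earlier results of these data known: 3 glucose and lactate transporters, 8 genes of the hexose phosphate steps with the PFKFB enzymes, 6 of the triose phosphate steps to lactate, 5 of the pentose phosphate pathway, 3 of pyruvate entry and 10 of the TCA cycle and citrate export. All 35 were found and all 35 were tested.

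The RNA came from neutrophils washed out of the peritoneum of cGAS knockout mice (cGAS-/-, strain written C57B/L6 in the labels), which lack the sensor of cytosolic DNA that makes cGAMP. In the study's methods, such cells are drawn into the peritoneum by thioglycolate before lavage. Of the 6 samples, 3 were kept in medium for 2 h (untreated) and 3 were given 500 ng/mL of LPS from E. coli for 2 h, as the labels state it. Every sample carries the deletion, so no wild-type level is at hand, and the number of mice behind the samples is not given in the sources used here. Mice of the study were males aged 8 weeks, and the labels of these samples give no age. Nothing in the labels ties a sample to its own mouse or culture, so p-values measure the spread between these samples, which may be technical. Cgas itself stood at 0.203, 0.307 and 0.180 untreated and at 0.184, 0.0713 and 0.0286 with LPS, and whether reads can come from outside the deleted part was not determined.

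Values are taken here as scaled TPM (TPM being a length-corrected share of all transcripts, here a mean over the transcripts of each gene with 1 further scaling factor for every sample). The read depth behind them is unknown and levels are not compared between genes. Untreated samples summed to between 603599 and 713384 and LPS samples to between 404675 and 465904. Genes above 0 numbered 15419 to 15800 untreated and 16148 to 19191 with LPS, so the groups did not overlap in either measure. Protein-coding genes held 21.0 to 28.3% of the sum in untreated samples and 49.7 to 58.9% in LPS samples. Neutrophil markers (13 of 15 listed markers in the table) summed to 9887 to 28691 untreated and 16114 to 54717 with LPS, most of it S100a8 and S100a9. Not every marker of this list was high, with Ltf between 2.27 and 9.18 and Camp between 1.16 and 36.0. Parts of other lists were also found. Macrophage markers (11 of 15 listed) summed to 1066 to 1533 untreated and 807 to 1111 with LPS, led by Lyz2, which neutrophils also express. B cell markers (5 of 7) summed to 280 to 1085 and 262 to 796, and erythroid markers (4 of 5) to 21.5 to 5629 and 165 to 4651. Sums stayed between 6.23 and 16.8 for T and NK cells (8 of 10), between 25.7 and 132 for mast cells (4 of 6), between 0.610 and 1.90 for eosinophils (4 of 4, with Epx at 0) and between 0.0422 and 0.603 for mesothelium (3 of 5), and those of platelets (3 of 3) were 1.67 to 8.85 untreated and 4.72 to 32.0 with LPS. Among these lists, 1 macrophage marker was called higher and 1 neutrophil marker lower. In such bulk samples, fewer cells of a type and less RNA per cell cannot be told apart.

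The question was which of these genes differed in transcript level after 2 h of LPS. The single member that passed the limits of p under 0.01 and a log2 fold change over 2 was Pfkfb4, which was lower with LPS. No member passed them upward, where 389 of 23049 genes did (1.69%), and 1 of 35 passed downward beside 301 of all genes (1.31%). At a Benjamini-Hochberg adjusted p under 0.05 by limma, 0 members were called in either direction, beside 206 genes higher (0.894%) and 218 lower (0.946%). At an unadjusted p under 0.05, 1 member was higher (Ldha) and 1 lower (Pfkfb4), beside 10.3% and 6.66% of all genes. The median log2 fold change of the 35 genes, on the log2(scaled TPM + 1) scale used for every fold change here, was 0.32, with 22 genes above 0 and 13 below. It was 0.013 over all genes tested and 0.37 over the 5894 protein-coding genes with a mean of at least 1.

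**Figure D1:**
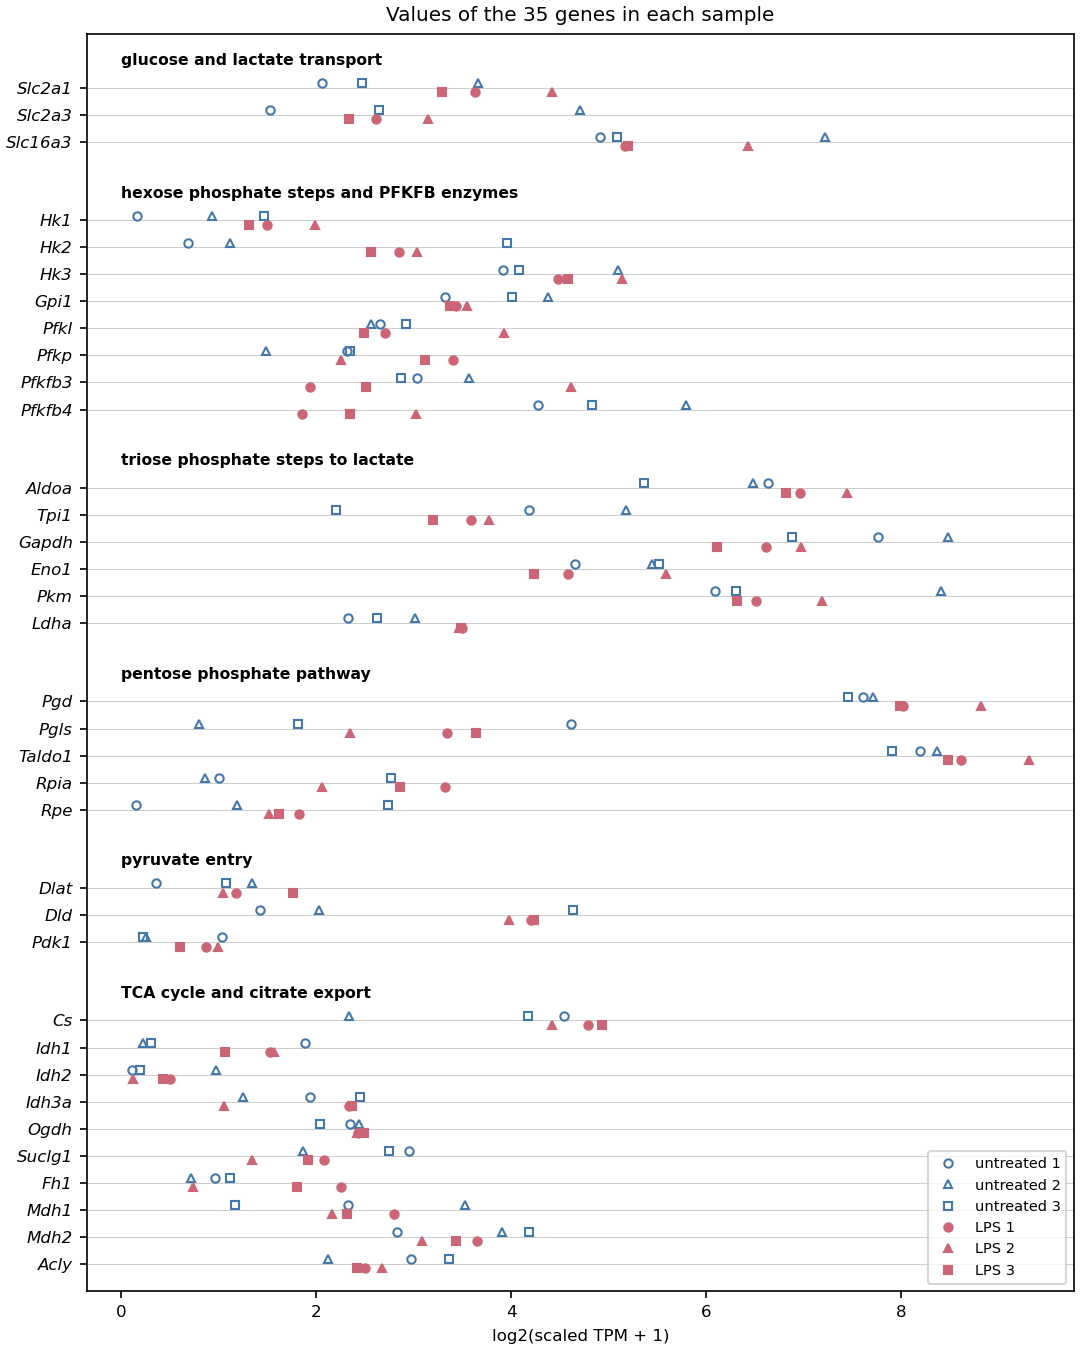
Values of the 35 genes, grouped by step, in the 3 untreated samples (open blue symbols) and the 3 LPS samples (filled red symbols) on a log2(scaled TPM + 1) axis, with the symbol shape giving the replicate number of the label. Pfkfb4 has its LPS values below all untreated values, Aldoa, Ldha, Pgd and Taldo1 have theirs above, and the other 30 genes overlap.

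The 250 bases before the transcription start are printed for the members with an unadjusted p under 0.05, Pfkfb4 and Ldha, and for the lactate carrier Slc16a1, the gene called from a wider pathway list, so that their promoters can be read beside the values. The sequences are RefSeq's on GRCm38.p6, 5′ to 3′ on the strand of the gene: Pfkfb4 at chr9:108991652-108991901, plus strand, Ldha at chr7:46845554-46845803, plus strand, and Slc16a1 at chr3:104638414-104638663, plus strand. Capitals mark ACGTG, the core of the element bound by hypoxia-inducible factors, on either strand. Where it reads as CACGTG, it is also the E-box bound by MYC and related factors, so these motifs overlap.
Pfkfb4: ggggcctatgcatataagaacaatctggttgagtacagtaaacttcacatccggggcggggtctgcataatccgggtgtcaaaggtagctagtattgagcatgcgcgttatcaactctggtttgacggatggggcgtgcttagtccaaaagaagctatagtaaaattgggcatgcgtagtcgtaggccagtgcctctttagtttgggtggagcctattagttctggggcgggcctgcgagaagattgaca
Ldha: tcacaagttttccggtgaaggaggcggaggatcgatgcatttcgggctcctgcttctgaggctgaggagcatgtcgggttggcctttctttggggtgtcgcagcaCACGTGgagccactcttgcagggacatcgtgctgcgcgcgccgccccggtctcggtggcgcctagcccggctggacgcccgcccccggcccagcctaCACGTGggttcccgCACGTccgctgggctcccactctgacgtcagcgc
Slc16a1: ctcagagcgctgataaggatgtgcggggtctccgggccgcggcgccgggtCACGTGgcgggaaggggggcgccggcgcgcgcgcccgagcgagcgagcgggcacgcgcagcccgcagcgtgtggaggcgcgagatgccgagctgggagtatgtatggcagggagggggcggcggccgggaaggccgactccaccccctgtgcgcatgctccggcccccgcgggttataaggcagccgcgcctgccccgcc
ACGTG was not found before the start of Pfkfb4, formed 3 blocks before that of Ldha (1 of its 2 starts in the table) and 1 before that of Slc16a1. The Ldha start printed was chosen as the one with the most ACGTG matches, and its other start held none. Pfkfb4 and Slc16a1 had 1 start each. Over the whole windows, which add 50 bases after the start, 20 of 49 member promoters held ACGTG (40.8%, from 13 of 33 members in the table) beside 19.6% of all 32851 promoters. Of these 20, 6 are alternative starts of Ogdh, and counted by gene the shares were 39.4% of members and 21.8% of 27025 genes. For CACGTG the shares of promoters were 10.2% and 7.15%, and for a kappa-B pattern, GGG followed after 5 bases by CC on either strand, 67.3% and 50.8%. Of the 5 member promoters with CACGTG, 3 are starts of Ogdh. Counted by gene, the shares were 9.09% of members and 8.09% of genes for CACGTG, and 81.8% and 53.5% for the kappa-B pattern. Slc2a3 and Idh3a were not in the promoter table. A match describes letters and not a bound site.

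Among the transporters, no gene was called. Slc2a1 encodes GLUT1 and Slc2a3 encodes GLUT3, which take up glucose, while Slc16a3 encodes MCT4, which carries lactate out of glycolytic cells. Slc16a3 (chromosome 11, 120838846 to 120851694, GRCm39) stood at 29.1, 148 and 33.1 untreated and at 34.97, 85.6 and 35.8 with LPS. In each group replicate 2 was far above the other samples, and the groups overlapped. Its log2 fold change was −0.14 (SE 0.73, limma adjusted p = 0.93). Slc2a1 had a mean of 6.45 ± 4.55 (SD, n = 3) untreated and 13.5 ± 6.08 (SD, n = 3) with LPS, a log2 fold change of 1.05 with a 95% interval of −0.26 to 2.36. Slc2a3 ranged from 1.89 to 25.1 untreated and from 4.06 to 7.89 with LPS. The median log2 fold change of the 3 was −0.14.

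The hexose phosphate steps held the member that was called. Pfkfb4 and Pfkfb3 encode bifunctional enzymes that make and break the fructose bisphosphate by which phosphofructokinase is activated, and the PFKFB3 enzyme is the form with the stronger kinase side. Pfkfb4 (chromosome 9, 108820832 to 108862847, GRCm39, promoter printed above) stood at 18.4, 54.4 and 27.4 untreated and at 2.63, 7.16 and 4.11 with LPS. The highest LPS value lay below the lowest untreated value. The means were 33.4 ± 18.7 (SD, n = 3) and 4.63 ± 2.31 (SD, n = 3), and the log2 fold change was −2.55 (SE 0.52, 95% interval −3.81 to −1.29, unadjusted p = 0.0025, limma adjusted p = 0.071). The gene was lower under every one of 16 alternatives, between −3.01 and −1.91. It no longer passed the p limit without LPS replicate 1 (log2 fold change −2.28, limma adjusted p = 0.23) or without LPS replicate 3 (−2.52, limma adjusted p = 0.24), and with a pseudocount of 5 its log2 fold change was −1.91, inside the fold limit. Its adjusted p by limma was 0.030 over genes with a mean of at least 1 and 0.031 with samples scaled to their protein-coding total, where the log2 fold change was −3.01.

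The values of Pfkfb3 were of another kind, although the difference between it and Pfkfb4 was not tested. Pfkfb3 stood at 7.19, 10.8 and 6.30 untreated and at 2.84, 23.5 and 4.72 with LPS. LPS replicate 2 was above all other samples and the remaining LPS samples below the untreated ones, so its log2 fold change of −0.13 came with an interval of −1.91 to 1.64. The ratio of Pfkfb4 to Pfkfb3, looked at after the values had been seen, does not depend on how a sample is scaled. It was 2.56, 5.02 and 4.35 untreated and 0.926, 0.305 and 0.871 with LPS. The highest ratio with LPS lay below the lowest untreated ratio, with means of 3.98 ± 1.27 (SD, n = 3) and 0.701 ± 0.344 (SD, n = 3).

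**Figure D2:**
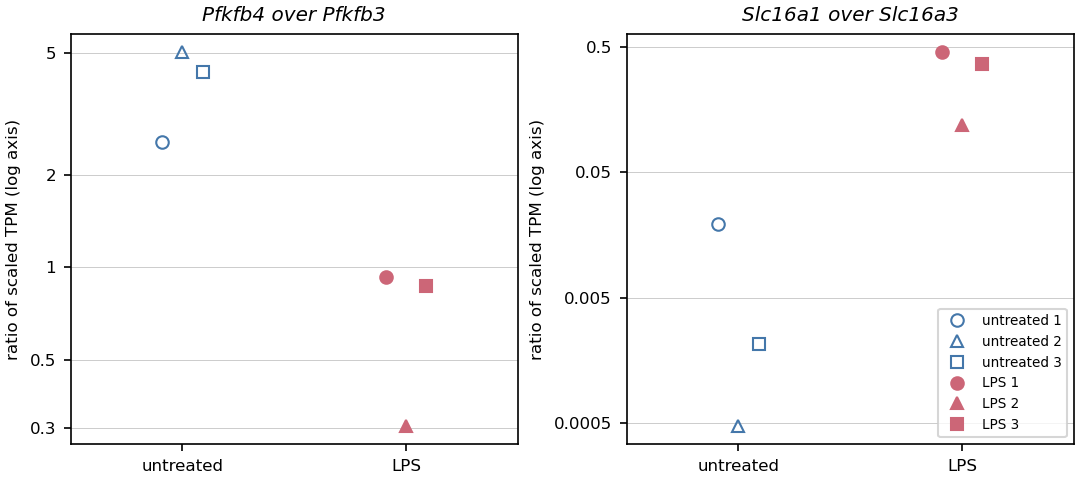
Ratios of scaled TPM within each sample, on log axes, for Pfkfb4 over Pfkfb3 (left) and Slc16a1 over Slc16a3 (right), with 1 symbol per sample. The left ratio runs from 2.56 to 5.02 untreated and from 0.305 to 0.926 with LPS, the right one from 0.00048 to 0.0194 and from 0.120 to 0.453.

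The other 6 genes of these steps overlapped between the groups. Hexokinases, encoded by Hk1, Hk2 and Hk3, trap glucose in the cell as its phosphate, and HK3 is the form typical of myeloid cells. Hk3 (chromosome 13, 55153798 to 55169276) stood at 14.1, 33.3 and 15.9 untreated and at 21.3, 34.1 and 23.0 with LPS, with replicate 2 highest in each group and a log2 fold change of 0.37 (SE 0.42, limma adjusted p = 0.65). Hk2, named after its values were seen, stood at 0.611, 1.17 and 14.6 untreated and at 6.21, 7.22 and 4.91 with LPS. Untreated replicate 3 alone was above the LPS samples while the remaining untreated samples lay below all of them. In that replicate the erythroid marker sum was 5629, and in LPS replicate 3, whose Hk2 value was the lowest of its group, it was 4651. The part of those cells in the Hk2 values was not tested. Log2 fold changes of Hk1, Pfkl and Pfkp were 0.74, 0.33 and 0.87, and that of Gpi1, the isomerase that follows hexokinase, was −0.45. Pfkl and Pfkp are subunits of phosphofructokinase, the committed step of glycolysis. Limma adjusted p ran from 0.38 to 0.70 for these 4 genes.

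In the triose phosphate steps to lactate, Aldoa and Ldha had LPS values above all untreated values, and the other 4 genes had log2 fold changes below 0. None was called, and the median was −0.30. Over the whole list, 4 of 35 genes had groups apart upward (13.1% of all genes tested, and 24.6% of protein-coding genes with a mean of at least 1) and 1 downward (9.75% and 9.89%), so that these counts were near or under those of other genes. Aldoa encodes the aldolase that splits fructose bisphosphate. It lies on chromosome 7, 126393822 to 126399923 (GRCm39), and stood at 98.3, 88.1 and 40.2 untreated and at 124, 174 and 112 with LPS. The gap between the groups was small beside the spread within them, and the log2 fold change was 0.92 (SE 0.43, limma adjusted p = 0.34).

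Ldha encodes the lactate dehydrogenase subunit that favours lactate formation. It lies on chromosome 7, 46490899 to 46505061 (GRCm39), and stood at 4.01, 7.08 and 5.17 untreated and at 10.3, 10.1 and 10.2 with LPS. The 3 LPS values were almost equal, with a mean of 10.2 ± 0.124 (SD, n = 3) beside 5.42 ± 1.55 (SD, n = 3) untreated. The log2 fold change was 0.83 (SE 0.30, 95% interval 0.092 to 1.57, unadjusted p = 0.033, limma adjusted p = 0.24). Across 16 alternatives it stayed above 0, from 0.39 to 1.01. The table lists 13 pseudogenes of Ldha, whose summed values were 15.3, 12.6 and 5.82 untreated and 4.37, 1.97 and 1.44 with LPS, so reads could be split between the gene and these copies.

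Gapdh encodes glyceraldehyde phosphate dehydrogenase, often used as a reference gene. It lies on chromosome 6, 125135289 to 125143518 (GRCm39), and stood at 217, 357 and 117 untreated and at 96.9, 124 and 68.1 with LPS. Of the LPS samples, 1 exceeded the lowest untreated sample. The log2 fold change was −1.15 (SE 0.49, 95% interval −2.34 to 0.042, limma adjusted p = 0.31). Its values carry a large uncertainty of another kind, since 135 pseudogene copies of Gapdh are in the table, 108 of them above 0. Their sum was 101, 162 and 400 untreated and 39.4, 76.7 and 58.9 with LPS. Untreated replicate 3, lowest of its group for Gapdh, was thus highest for the copies. For Pkm, named after its values were seen and encoding pyruvate kinase, the values were 67.3, 339 and 78.5 untreated and 90.5, 145 and 78.8 with LPS, with replicate 2 highest in each group. Tpi1, Eno1 and Pkm, whose products are triose phosphate isomerase, enolase and pyruvate kinase, had log2 fold changes of −0.33, −0.40 and −0.26 with limma adjusted p between 0.65 and 0.84.

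**Figure D3:**
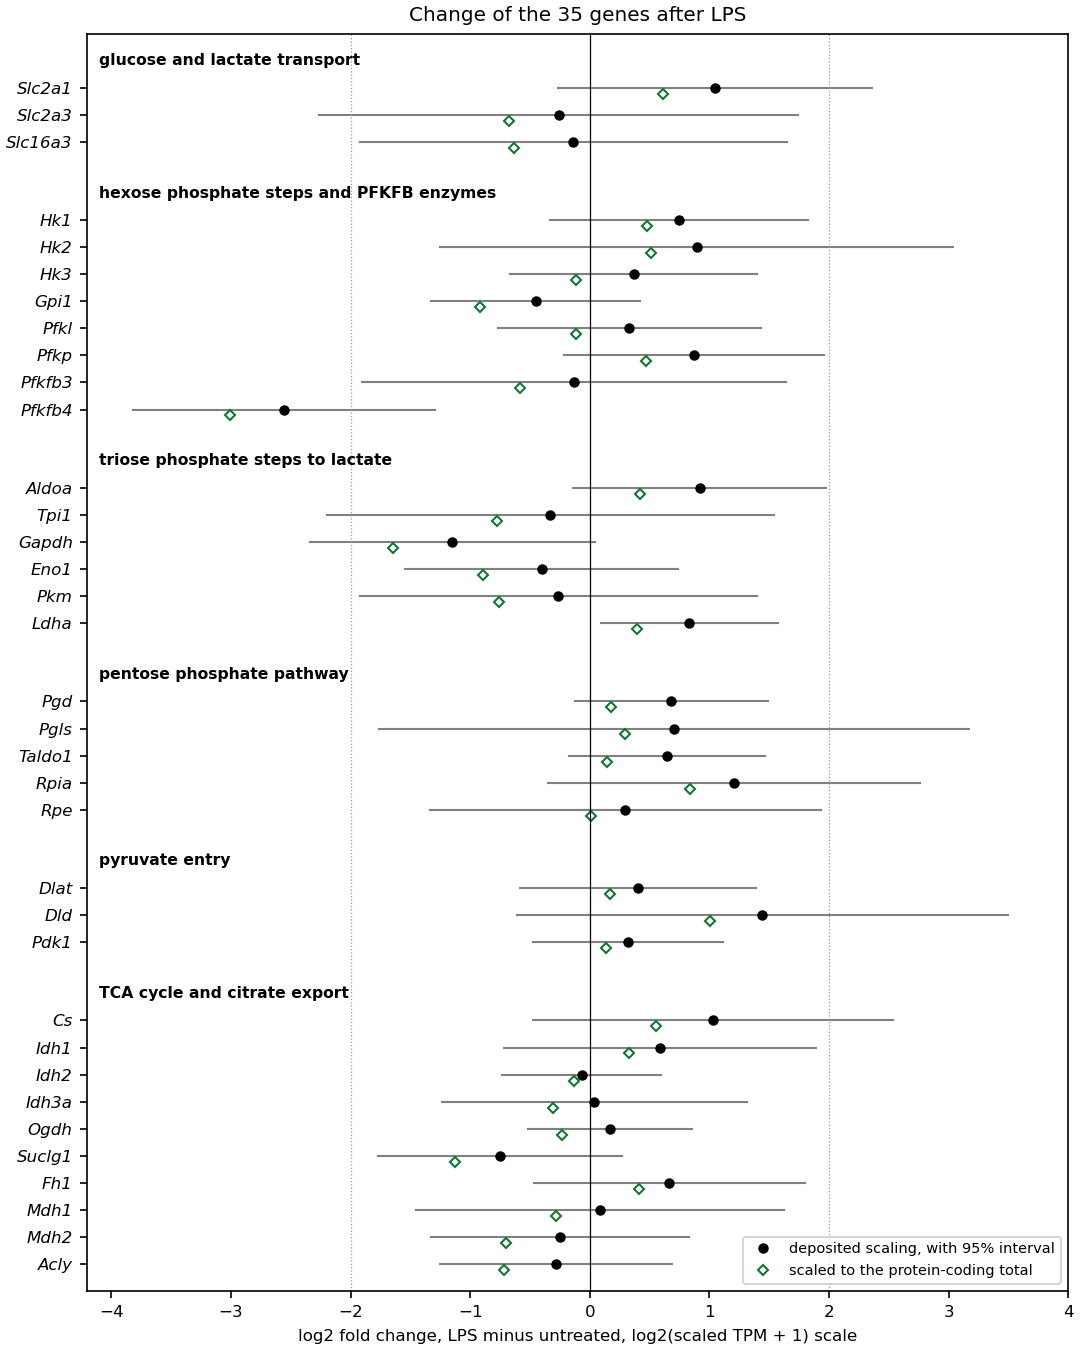
Log2 fold change, LPS minus untreated, of the 35 genes by step with 95% intervals from limma (black), and the same estimate after each sample was scaled to its protein-coding total (green diamonds). Dotted lines mark the fold limit of 2 in either direction. All intervals but those of Pfkfb4 and Ldha include 0, and each green diamond lies to the left of its black point.

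All 5 listed genes of the pentose phosphate pathway had log2 fold changes above 0, with a median of 0.68, and 0 of them passed a limit. They do not cover the whole branch, since G6pdx and Tkt, listed with the other pathway genes, were not in the table. H6pd, from that same list and described below, had a log2 fold change of −1.22. Pgd encodes phosphogluconate dehydrogenase, one of the NADPH-forming steps, and Taldo1 encodes transaldolase, which links the branch back to glycolysis. Taldo1 (chromosome 7, 140972053 to 140982886, GRCm39) stood at 292, 329 and 240 untreated and at 392, 635 and 356 with LPS. Pgd (chromosome 4, 149233246 to 149251228) stood at 195, 209 and 175 untreated and at 259, 451 and 253 with LPS. For each gene the lowest LPS value exceeded the highest untreated value, and LPS replicate 2 was far above the other LPS samples. The log2 fold change of Taldo1 was 0.65 (SE 0.34, limma adjusted p = 0.39) and that of Pgd was 0.68 (SE 0.33, limma adjusted p = 0.36). With samples scaled to their protein-coding total, the estimates were 0.14 and 0.18, and the groups of neither gene stayed apart. Pgls, Rpia and Rpe, the lactonase and the enzymes that interconvert pentose phosphates, had log2 fold changes of 0.70, 1.21 and 0.30. Pgls ranged from 0.739 to 23.4 among the untreated samples and from 4.09 to 11.4 among the LPS samples.

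Pyruvate entry was covered by Dlat and Dld, which encode subunits of the pyruvate dehydrogenase complex, and Pdk1, a kinase that switches the complex off. Their 3 log2 fold changes were above 0, with a median of 0.40 and limma adjusted p from 0.45 to 0.60. Dld, whose product also serves the oxoglutarate dehydrogenase complex, lies on chromosome 12, 31379323 to 31401452 (GRCm39). It stood at 1.68, 3.10 and 23.9 untreated and at 17.5, 14.8 and 17.8 with LPS. Untreated replicate 3 was above every LPS sample and the other untreated samples were below all of them. The log2 fold change of 1.44 (SE 0.84, limma adjusted p = 0.45) was thus lowered and its error widened by that sample. Without untreated replicate 3 Dld was called higher, at 2.41 (unadjusted p = 0.00078, limma adjusted p = 0.062), and it was at 0.80 and 1.11 without untreated replicate 1 and 2.

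No gene of the TCA cycle and citrate export was called, 6 of the 10 had log2 fold changes above 0, and their median was 0.061. Cs, the citrate synthase gene at the entry of the cycle, lies on chromosome 10, 128172837 to 128198363 (GRCm39). It stood at 22.3, 4.06 and 17.1 untreated and at 26.6, 20.4 and 29.6 with LPS. Untreated replicate 2 was far below the other samples, and LPS replicate 2 lay within the untreated range. The log2 fold change was 1.03 (SE 0.62, limma adjusted p = 0.46), the largest of the 10. At the other end, Suclg1, which encodes a subunit of succinyl-CoA ligase, had −0.75 (SE 0.42, limma adjusted p = 0.42). The isocitrate dehydrogenase genes Idh1, Idh2 and Idh3a were at 0.58, −0.069 and 0.039, the malate dehydrogenase genes Mdh1 and Mdh2 at 0.084 and −0.25, Ogdh at 0.17, Fh1 (fumarase) at 0.67 and Acly, which cleaves exported citrate, at −0.29. The 95% interval of Ogdh, −0.51 to 0.85, lay within 1 log2 unit of 0 on either side. So did that of Idh2, but its values were all under 1 (0.0817 to 0.957), where the pseudocount of 1 holds differences small, and with a pseudocount of 0.1 its SE was 0.90 in place of 0.27.

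Precision set what these comparisons could show. For the 35 genes the median half-width of the 95% interval was 1.14 on the log2 scale, and 33 intervals included 0. A log2 fold change of 1 lay inside 26 of the intervals and one of −1 inside 16. Adjusted p by limma ran from 0.071 to 0.98, and a gene that missed the limits is not shown to be equal in the groups.

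The untreated samples varied more than the LPS samples. The SD of log2(scaled TPM + 1) was larger among untreated samples in 27 of 35 genes, with medians of 0.66 untreated and 0.38 with LPS. Among protein-coding genes with a mean of at least 1, the SD was larger among untreated samples in 82.7%, so the members did not stand apart here. Dld, Hk2 and Cs, described above, were of this kind. Pfkfb3 and Pfkl went the other way, with SDs of 0.36 and 0.18 untreated and 1.41 and 0.77 with LPS.

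**Figure D4:**
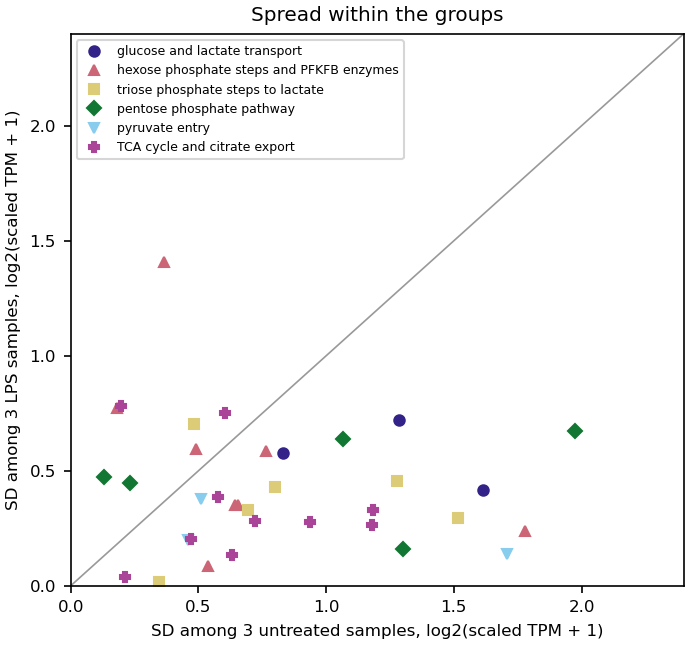
Standard deviation among the 3 LPS samples against that among the 3 untreated samples, each on the log2(scaled TPM + 1) scale, with 1 symbol per gene shaped by step and a line of equality. Of 35 genes, 27 lie below the line, where untreated samples varied more.

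Replicate 2 was the highest sample of each group at the same time in 12 genes: Slc2a1, Slc2a3, Slc16a3, Hk3, Gpi1, Pfkfb3, Pfkfb4, Tpi1, Gapdh, Pkm, Pgd and Taldo1. These were all 3 transporters, 4 of 8 hexose phosphate genes, 3 of 6 triose phosphate genes and 2 of 5 pentose phosphate genes, with 0 of 3 pyruvate entry genes and 0 of 10 TCA cycle genes. Over the 35 genes the share was 34.3%, beside 18.8% of the 5894 protein-coding genes with a mean of at least 1, and it is given as a description noticed in these values. For Slc16a3, replicate 2 was 4.77 times the mean of the other untreated samples and 2.42 times that of the other LPS samples. For Pkm these factors were 4.65 and 1.71, while for Cs they were 0.206 and 0.725 and for Suclg1 0.425 and 0.513. Cs and Suclg1 do not stand for their step, since the factors of Mdh1 were 4.01 and 0.703. Replicate 2 was the highest untreated sample in 3 of the 10 TCA cycle genes and the highest LPS sample in 2. The neutrophil marker sum, most of it S100a8 and S100a9, was also highest in replicate 2, at 10042, 28691 and 9887 untreated and 18297, 54717 and 16114 with LPS. Of its 13 markers, 9 were highest in replicate 2 of each group, and Csf3r, Camp, Ltf and Il1r2 were not. The macrophage sum, led by Lyz2, was highest in replicate 2 too, at 1066, 1533 and 1128 untreated and 1004, 1111 and 807 with LPS. Its single markers were mixed, with 2 of 11 highest and 4 lowest in replicate 2 of each group. The B cell sum was lowest there, at 1085, 280 and 1028 and at 796, 262 and 725, with 3 of 5 markers lowest in each group and Cd79b and Pax5 not lowest in the untreated one. All 4 erythroid markers were lowest there, with sums of 356, 21.5 and 5629 and of 572, 165 and 4651. The part of cell makeup in the values of these genes was not tested.

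**Figure D5:**
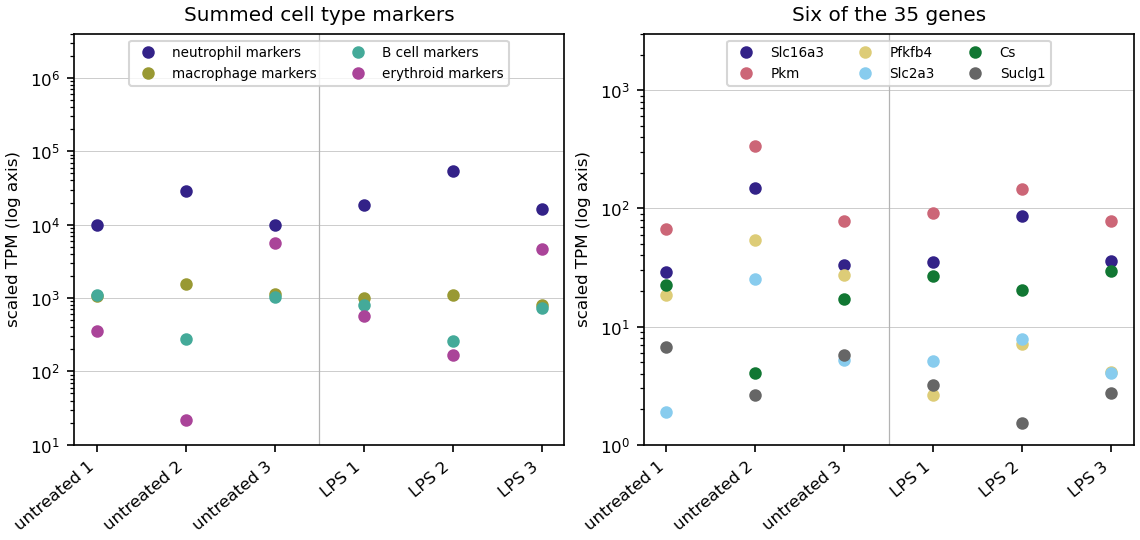
Summed scaled TPM of neutrophil, macrophage, B cell and erythroid markers (left) and scaled TPM of Slc16a3, Pkm, Pfkfb4, Slc2a3, Cs and Suclg1 (right) in each sample, on log axes. In replicate 2 of each group the neutrophil and macrophage sums and the first 4 genes are highest, and the B cell and erythroid sums and Cs and Suclg1 are lowest. The genes shown do not stand for their steps, and other TCA cycle genes, such as Mdh1, were highest in untreated replicate 2.

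The larger share of protein-coding genes in the LPS samples bears on every direction above. Dividing each sample by its protein-coding total moved the median log2 fold change of genes with a mean of at least 1 from 0.13 to −0.22 and turned 389 genes called higher and 301 lower into 220 and 522. Under that scaling the median of the 35 genes was −0.11, 17 were above 0, and Hk3, Pfkl, Idh3a, Ogdh and Mdh1 turned from above to below 0. None of the 35 then had LPS values all above the untreated ones, beside 1982 of the 23049 genes tested. Gapdh, Gpi1 and Pfkfb4 had them all below, beside 3199 of the genes tested. Aldoa and Ldha were at 0.42 and 0.39 and Gapdh at −1.65 (limma adjusted p = 0.11).

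Of 70 other genes of these pathways listed beside the 35, 45 were in the table and 40 had a value above 0. By the same limits 1 was called higher, 0 were called lower, and their median log2 fold change was 0.028. The called gene was Slc16a1, which encodes the proton-coupled lactate and pyruvate carrier MCT1 (chromosome 3, 104545811 to 104565780, GRCm39, promoter printed above). It stood at 0.566, 0.0713 and 0.0704 untreated and at 15.8, 10.3 and 13.02 with LPS. Near 0 in every untreated sample and above 10 in every LPS sample, it had a log2 fold change of 3.51 (SE 0.33, 95% interval 2.70 to 4.32, limma adjusted p = 0.014), from 1.78 to 5.59 over 16 alternatives with limma adjusted p from 0.0039 to 0.14. It stayed under an adjusted p of 0.05 on leaving out any untreated sample, and limma adjusted p was 0.13, 0.063 and 0.14 on leaving out LPS replicate 1, 2 and 3. With a pseudocount of 5 its log2 fold change was 1.78, inside the fold limit. The ratio of Slc16a1 to its relative Slc16a3, chosen after the values were seen and free of sample scaling, was 0.0194, 0.00048 and 0.0021 untreated and 0.453, 0.120 and 0.364 with LPS. The lowest ratio with LPS was thus above the highest ratio untreated.

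Groups were apart upward in 5 of these 40 other genes, beside 13.1% of all genes tested, among them Slc16a1, Tigar, Eno2 and Mpc2. They were apart downward in 3 (Pfkfb2, H6pd and Dhtkd1), beside 9.75%. These counts were near or under the shares of all genes, and all but Slc16a1 are named after their values were seen. Tigar, whose product breaks down the same fructose bisphosphate that the PFKFB enzymes make, stood at 0.614, 0.0875 and 0.0430 untreated and at 2.64, 1.48 and 2.38 with LPS (log2 fold change 1.35, SE 0.35, limma adjusted p = 0.11). H6pd, the glucose phosphate dehydrogenase of the endoplasmic reticulum, stood at 5.75, 2.64 and 3.95 untreated and at 0.748, 1.67 and 1.04 with LPS (log2 fold change −1.22, SE 0.37, limma adjusted p = 0.16). Tigar was under the unadjusted p limit of 0.01 but inside the fold limit, which it passed with a pseudocount of 0.1, at 3.04. Over 16 alternatives its log2 fold change ran from 0.45 to 3.04 and its limma adjusted p from 0.048, without a trend, to 0.34. With the protein-coding total it missed the p limit (unadjusted p = 0.028, limma adjusted p = 0.23). H6pd passed neither limit.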

How the data were processed

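RNA was sequenced from neutrophils of cGAS-/- mice. As the study's methods state, reads were aligned to GRCm39 with STAR, transcripts quantified with Kallisto and values normalized. The labels also list fastp and mm10, and the annotation release is not given in the sources used here. The labels give 500 ng/mL of LPS, the methods 100 ng/mL. The authors deposited 1 table of normalized values, taken here as TPM averaged over a gene's transcripts and divided by 1 factor per sample: in untreated replicate 3, 81.8% of 675 long values ended at 6 decimals after multiplication by a whole number up to 60, against 0% of shifted values. Depth is therefore unknown and count tests were not run.

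The members and lists were chosen with earlier results of these data known. Genes above 0 in any sample (23049) were tested with limma 3.58.1 (R 4.3.3) on log2(value + 1), two-sided, with a trended eBayes, on all 6 samples without covariates. Values per sample are given for members called, with groups apart, or with the highest mean of their step, and of the other pathway genes those past a limit are named. The values of 1 of those other genes are not reported here. Promoters were searched in RefSeq's table, and pseudogenes assigned with blastn 2.17.0 (90% identity over 50% of length). Alternatives were pseudocounts of 0.1 and 5, filters, scalings, untrended eBayes, a replicate block, looser limits and leaving out each sample. The model was tested on simulated data, drawn as independent normal values with changes larger than the fold limit. These held no shift in the protein-coding share and no effect shared by a replicate number, so the model was not tested for those.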

Additional observations from a re-analysis of the deposited data

How the results depend on the processing

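Pfkfb4 was lower and Slc16a1 higher under all 16 alternatives. Of the 35 genes, 21 kept the sign of their log2 fold change throughout and 14 turned at least 1 time. Members called higher numbered 0 to 1 on leaving out 1 sample, the 1 being Dld without untreated replicate 3. Members called lower numbered 0 to 1 in these fits, 0 without LPS replicate 1 or 3, and 0 with a pseudocount of 5. On leaving out 1 sample, 260 to 463 of all genes were called higher and 263 to 394 lower. With an adjusted p by limma, 1 of 33 members passed over genes with a mean of at least 1 and 1 of 35 with the protein-coding total (Pfkfb4 each time). Beside them, 557 genes passed higher and 483 lower of 9403 in the first setting, and 120 and 390 of 23049 in the second. Members with groups apart upward were 0 with the protein-coding total and 4 to 9 on leaving out a sample, and downward 2 with median centring, 3 with the protein-coding total and 1 to 4 on leaving out a sample, where fewer samples are less likely to overlap. Over all genes tested, groups were apart upward in 1982 with the protein-coding total and in 3426 to 4648 on leaving out a sample. Downward they were apart in 2692 with median centring, 3199 with the protein-coding total and 2520 to 3675 on leaving out a sample. The median over members was 0.093 with a pseudocount of 5, −0.11 with the protein-coding total and 0.14 (without untreated replicate 1) to 0.36 on leaving out a sample.

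With the protein-coding total, Hk3 and Pfkl were at −0.11, Idh3a at −0.31, Ogdh at −0.23 and Mdh1 at −0.28. With quantile normalization, Pkm was at 0.0034, Slc16a3 at 0.0099 and Idh3a at −0.042. Median centring put Idh3a at −0.038 and a pseudocount of 5 put Mdh1 at −0.024. Leaving out 1 sample gave ranges across 0 for Slc2a3 (−0.98 to 0.61), Pfkl (−0.11 to 0.61), Pfkfb3 (−0.93 to 0.41), Tpi1 (−1.16 to 0.33), Pkm (−0.69 to 0.47), Slc16a3 (−0.56 to 0.60), Pgls (−0.10 to 1.80), Rpe (−0.31 to 0.99), Idh2 (−0.22 to 0.20), Idh3a (−0.28 to 0.47), Mdh1 (−0.50 to 0.68) and Mdh2 (−0.66 to 0.025). Causes of these turns were not tested. Over all genes, calls higher and lower were 856 and 493 with a pseudocount of 0.1, 129 and 168 with a pseudocount of 5, 293 and 44 among protein-coding genes alone, and 1533 and 1066 at p under 0.05 and a log2 fold change over 1. Calls by adjusted p were 557 and 483 with a mean of at least 1 and 687 and 611 without a trend.

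Replicate numbers are shared by the groups, but nothing in the labels says that they pair samples. Deviations of same-numbered samples correlated at 0.10, 0.22 and 0.093, and every sample correlated best with its own number, a hint from the data alone. With the replicate block, 387 genes were called higher and 303 lower, 1 and 15 passed the adjusted p limit beside 206 and 218 without it, and members called stayed at 0 higher and 1 lower (Pfkfb4, with a limma adjusted p of 0.092), while that of Slc16a1 was 0.080.

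Each group has 3 samples, depth is unknown, and gene values are means over transcripts, so a shift between transcripts of a gene cannot be told from a change of its level.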

Other observations

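Pseudogene copies made from transcripts of the 35 genes were measured beside them. The table held 165 such copies of 8 members, 130 of them above 0, and 12 members had a stretch of at least 150 bases at 95% identity or more in another gene. The summed copies stood at 118, 183 and 407 untreated and at 46.5, 86.1 and 61.8 with LPS, with each LPS value below each untreated value. Of the copies 135 are of Gapdh, and these alone summed to 101, 162 and 400 and to 39.4, 76.7 and 58.9, nearly the whole of it. The 35 genes themselves summed to 1093, 1770 and 937 untreated and to 1224, 1890 and 1116 with LPS, and these groups overlapped. Hif1a, the gene of a factor that drives many glycolysis genes and a gene on the list of other pathway genes, stood at 23.7, 45.2 and 31.2 untreated and at 44.2, 71.8 and 39.2 with LPS, and the groups overlapped.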
